A study of Arabidopsis thaliana with 54 samples.

Results

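The transcripts of 10 Arabidopsis thaliana genes of sugar starvation and trehalose phosphate signalling were followed through the day in 3 photoperiods. They were chosen by name, with their identifiers, among the 32833 gene identifiers of the count table. The rule uses no measured value, but earlier results of these data were known when it was set. The set holds 4 genes of sugar starvation, EXL1, DIN10, SEN1 and BGAL4. It also holds 5 class II trehalose phosphate synthase genes, TPS5, TPS8, TPS9, TPS10 and TPS11, and AKINBETA1, which encodes a β subunit of the kinase SnRK1. Whole Col-0 seedlings (genotype Columbia 0 in the labels), shoots and roots together and 12 days old by the labels, were sampled every 4 h from ZT00 to ZT20, where ZT is the time after dawn. Light lasted 8 h in short days (SD), 12 h in equinox days (EQ) and 16 h in long days (LD). Every seedling had first grown for 10 days in EQ and had then spent 48 h in its photoperiod, so the EQ seedlings stayed in theirs. Each of the 18 groups has 3 replicates, A, B and C, each a pool of seedlings from a single plate, which gives 54 libraries. The labels place the harvest at ZT00 in the dark, and the harvests at SD ZT08, EQ ZT12 and LD ZT16, the hours of dusk, still in the light.

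Leaves store part of the carbon fixed by day as starch and spend it at night. When sugar runs low, SnRK1, a kinase that senses energy, switches genes towards the breakdown of reserves, and trehalose 6-phosphate, a sugar phosphate made by TPS1 in step with sucrose, inhibits SnRK1. The class II TPS proteins resemble TPS1 but show little or no synthase activity, and their transcripts are known to respond to sugar: those of TPS8 to TPS11 fall when sugar is supplied and that of TPS5 rises. DIN10, a raffinose synthase-like protein, and SEN1, a protein of senescing leaves, are classic dark-inducible genes. BGAL4 is a β-galactosidase of the cell wall and EXL1 (PHI-1 in the annotation) is an EXORDIUM-like protein known for growth under low carbon.

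The SD libraries held 2976677 to 3941391 counts, the EQ libraries 2454744 to 4124570 and the LD libraries 2430049 to 4114579, and levels are given in CPM, counts scaled by TMM to a common library size. All 10 genes passed the filter on low counts in the fit of 54 libraries, which tested 14115 genes. Per kilobase of exon, the mean count was highest for DIN10 (54.1) and SEN1 (42.1), was 14.4 for AKINBETA1 and 12.1 for BGAL4, and lay between 1.28 (TPS10) and 7.19 (TPS9) for the rest. DIN10 and BGAL4 were counted in 54 of 54 libraries, while the other genes had a count of 0 in 11 (TPS5) to 26 (TPS10) libraries. The counts came from an estimate of transcript coverage, in which the lowest count above 0 was 7 for TPS8, 4 for SEN1 and 3 for TPS11. A listed 0 may therefore be a dropped low estimate, and a fold against a group at 0 is given as a bound set by 3 counts per library, or by the lowest count of the gene above 0 in any library where that is higher (4 for SEN1, TPS5, TPS9 and TPS10 and 7 for TPS8). Each fold given as "at least" holds only where no listed 0 hides more than that count, and it leaves out the spread of the higher group. Zeros also stood beside higher counts, such as 29, 0 and 0 for TPS9 at SD ZT04. DIN10 overlaps AT5G20260 on the opposite strand by 82 bp, BGAL4 overlaps AT5G56880 by 909 bp and TPS5 overlaps AT4G17780 by 128 bp. The library kit described in the methods does not mark strand, and with such a kit reads in the shared stretches could not be told apart. The partners had mean counts of 5.26, 0.556 and 0.796, which set no bound on their share in the counts of DIN10, BGAL4 and TPS5. The alignment was nevertheless run under a stranded setting. In the whole table, a mean under 1 count was found for 56.2% of the 20688 protein-coding genes without an antisense neighbour that overlaps them, against 19.7% of the 6756 with one, and the other 7 genes of the set have none. The part of this difference in the levels and zeros given here was not tested. No stretch of 50 bases in the exons of the 10 genes occurs in exons of another gene. The 5 shoot markers were detected, as were 5 of 7 root markers (EXPA7 and WER had means under 1 count).

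In 5 groups 1 library stood apart in the summed level of the 10 genes, by a factor of 1.99 to 3.38 from its nearest replicate, where neighbouring replicates of the other 13 groups differed by at most 1.65. Library C of EQ ZT00 had 72.6 CPM against 186 and 190 in A and B, and library C of EQ ZT08 had 158.5 CPM against 42.5 and 46.9. Library B of LD ZT12 had 76.0 CPM against 28.8 and 30.9, library B of LD ZT00 had 225 CPM against 113 and 106, and library C of SD ZT08 had 115 CPM against 54.4 and 54.9. Library C of EQ ZT08 also held the highest summed level of the shoot markers, 25202 CPM against a median of 1402 over all libraries. Of this sum 22295 CPM came from LHB1B2, a light-harvesting protein gene that overlaps an opposite gene by 1045 bp, and the other 4 markers summed to 2907 CPM there, against a median of 1240. Each of the 5 libraries, chosen after the data were seen, was left out in turn, and the calls this changed stand beside the results. The libraries were chosen by the level of these same genes, so a call kept without one of them is no support for that call.

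Averaged over harvests, most of the genes were higher in the dark than in the light. In SD, the mean over the dark harvests was above that over the light harvests for 10 of 10 genes in each of the 3 replicates, in EQ for 9 of 10 (TPS5 in 2 replicates only) and in LD for 8 of 10 (BGAL4 and TPS10 in 2). Of the 270 values from light harvests 103 were 0, against 18 of the 270 from dark harvests. These values share libraries and are not separate, and zeros of other genes at like depth were not counted. The level was not high in every dark harvest: at SD ZT20, DIN10 (25.4 CPM), BGAL4 (7.83 CPM), TPS10 and TPS11 had their lowest mean of the 6 SD time points. The median of the 10 log2 ratios of dark over light was 1.27 for SD libraries, 1.94 for EQ libraries and 1.06 for LD libraries, on the scale log2(CPM + 0.5). Over the 8189 genes with a mean of at least 10 counts the median was 0.04, 0.01 and -0.04 in the same order, and 30.8%, 29.2% and 27.2% of them were higher in the dark in 3 of 3 replicates. EXL1 and TPS10 had means below 10 counts and are not among these genes. In RNA from whole seedlings, fewer cells of a type and less RNA per cell cannot be told apart. These ratios are a description, since hours of darkness and time of day change together within a photoperiod. A replicate here joins the libraries of 1 letter, although the letters do not pair the libraries.

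**Figure D1:**
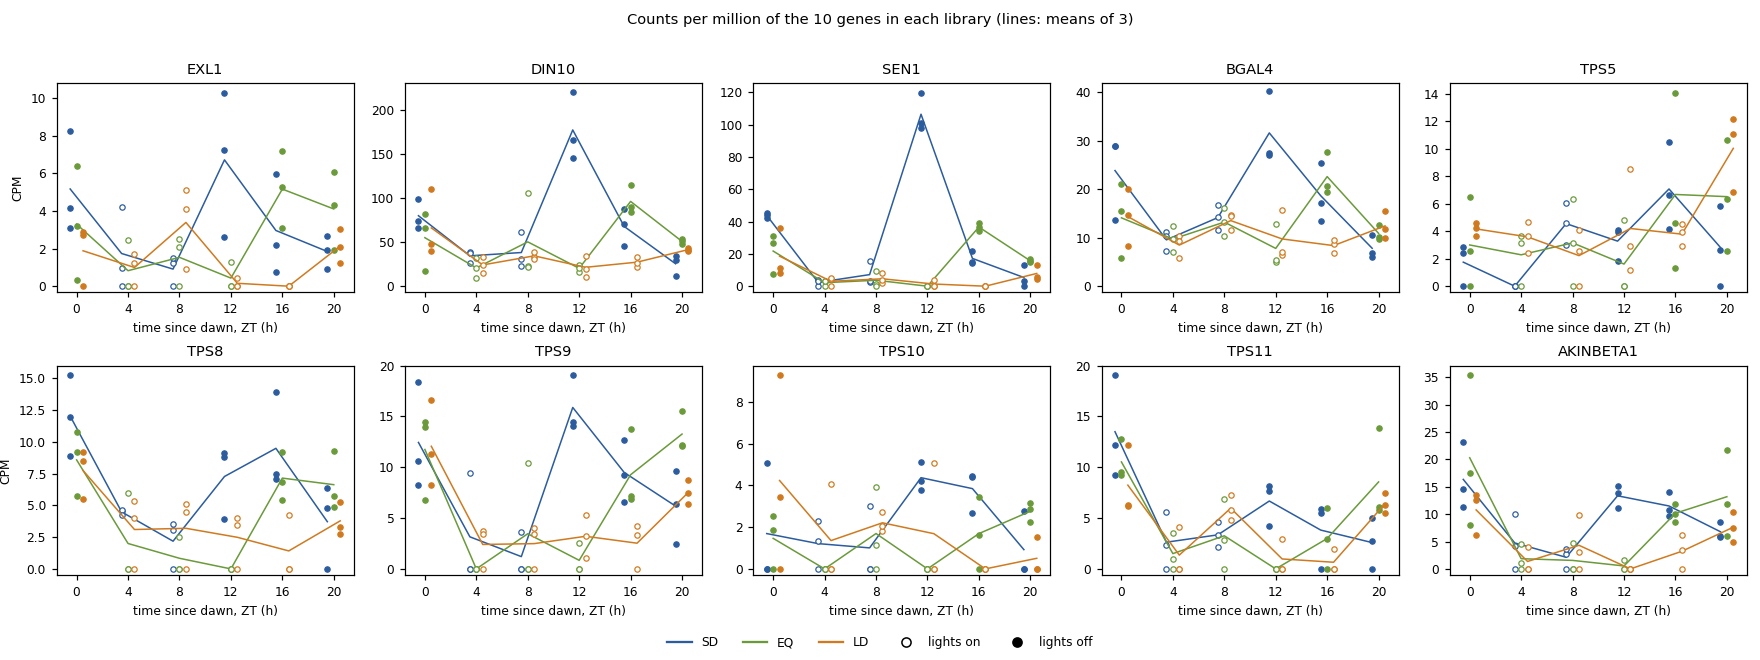
Levels of the 10 genes in CPM (vertical axes, 1 panel a gene, each with its own scale from 0) against hours after dawn, for SD, EQ and LD. Small points are the single libraries, lines join the means of 3 replicates, and open and filled symbols mark harvests with lights on and off, with the photoperiods shifted slightly sideways so that points do not cover each other. The peak of DIN10 at SD ZT12 (177 CPM) and that of SEN1 (106 CPM) stand above every other group.

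DIN10 (AT5G20250, chromosome 5, 6833564 to 6836862, plus strand, TAIR10.1) had its highest level 4 h after the lights went off in SD. At SD ZT12 its libraries held 145, 166 and 220 CPM, against 22.5, 31.0 and 61.0 CPM at dusk (SD ZT08). These 3 values lay above those of all 17 other groups, and the mean of the next group, EQ ZT16, was 96.1 ± 15.9 CPM (standard deviation, n = 3, as for all values with ±). The level then went down to 67.7 ± 21.0 CPM at ZT16 and 25.4 ± 11.9 at ZT20, within the same night. It stood at 79.9 ± 17.1 CPM at ZT00, the end of that night, so the SD course had 2 high points. In EQ it was 16.0, 24.2 and 20.6 CPM at dusk (ZT12) and 84.4, 89.6 and 114 CPM at ZT16, with no overlap. In LD it moved from 32.7, 22.1 and 26.8 CPM at dusk (ZT16) to 39.9, 43.7 and 41.0 CPM at ZT20, which also do not overlap but lie close. How often the groups of other genes do not overlap was not counted, so such statements, here and below, only describe the values.

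SEN1 (AT4G35770, chromosome 4, 16944878 to 16946266, plus strand) followed the same course from a lower base. It held 98.1, 101 and 120 CPM at SD ZT12, again above all 17 other groups, and 42.1, 45.1 and 44.1 CPM at SD ZT00. Between these peaks it was at 17.2 ± 4.18 CPM at ZT16 and 13.0, 3.12 and 0 CPM at ZT20. At dusk SEN1 was listed at 0 in all 3 libraries of EQ ZT12 and all 3 of LD ZT16, and held 2.44, 3.34 and 15.7 CPM at SD ZT08. After 4 h of dark it had 36.4, 39.2 and 34.1 CPM in EQ and 4.57, 13.4 and 5.68 CPM in LD. The order of the level after 4 h of dark was thus SD, EQ, LD, with no overlap between neighbours.

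BGAL4 (AT5G56870, chromosome 5, 23003909 to 23009672, plus strand) moved with smaller steps. Its libraries held 27.2, 27.6 and 40.2 CPM at SD ZT12 and 16.8, 11.5 and 14.2 CPM at SD ZT08. It was at 13.7, 29.0 and 28.9 CPM at SD ZT00, so library A of that group lay with the dusk values. In EQ it moved from 5.05, 12.9 and 5.48 CPM at dusk to 20.8, 27.8 and 19.4 CPM, and in LD from 8.79, 9.48 and 6.87 to 11.9, 15.6 and 9.87 CPM. The groups on either side of dusk did not overlap in any photoperiod. EXL1 (AT1G35140, chromosome 1, 12851983 to 12853235, plus strand) was far lower, with 2.64, 7.21 and 10.3 CPM at SD ZT12 and 3.06, 7.16 and 5.25 CPM at EQ ZT16. It was listed at 0 in all 3 libraries of LD ZT16 and in 14 of 54 libraries in all, and its neighbours in the order of the 18 groups differed by less than the larger of their standard deviations in 17 of 17 cases.

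The class II TPS genes are TPS8 (chromosome 1, 26470795 to 26474833, minus strand), TPS9 (chromosome 1, 8432179 to 8435656, plus strand) and TPS10 (chromosome 1, 22176934 to 22181740, minus strand), with TPS11 (chromosome 2, 8108898 to 8112010, plus strand) and TPS5 (chromosome 4, 9876172 to 9880386, plus strand). TPS8 and TPS11 were highest at the end of the SD night. TPS8 held 8.90, 11.9 and 15.2 CPM at SD ZT00, and TPS11 held 9.25, 12.2 and 19.0 CPM there. TPS11 at SD ZT12 had 7.65, 8.15 and 4.23 CPM, all below its ZT00 values, whereas DIN10, SEN1 and BGAL4 had their highest mean at ZT12. TPS9 had 14.5, 14.1 and 19.1 CPM at SD ZT12, 0, 0 and 3.63 CPM at SD ZT08, and 15.6, 12.1 and 12.1 CPM at EQ ZT20. TPS10 never passed 9.28 CPM in any library, was listed at 0 in 26 of 54, and was detected in all 3 libraries of SD ZT12 (4.22, 3.76 and 5.14 CPM).

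TPS5 was the exception among the TPS genes. Its highest group was LD ZT20, with 12.2, 6.86 and 11.1 CPM, and it was listed at 0 in all 3 libraries of SD ZT04. AKINBETA1 (AT5G21170, chromosome 5, 7205477 to 7208613, plus strand) was highest in mean at EQ ZT00, but its libraries there were far apart (17.5, 35.3 and 8.00 CPM). It held 11.1, 15.0 and 13.9 CPM at SD ZT12, 10.2 ± 1.70 at EQ ZT16 and 7.61 ± 2.69 at LD ZT20, and was listed at 0 in all 3 libraries of LD ZT12. In these 6 genes 15 to 17 of the 17 neighbours in the order of the groups differed by less than the larger of their standard deviations.

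The promoters of 4 of the genes are shown as the bases just before the annotated start, 5′ to 3′ on the strand of the gene, from the RefSeq TAIR10.1 sequence. DIN10, SEN1 and BGAL4 are the genes with the clearest rise after dusk, and TPS11 carries a TATCCA element, known from sugar-starved rice α-amylase genes. Capitals mark ACGT cores, the centre of bZIP factor sites, and TATCCA. The regions are chr5:6833314-6833563, chr4:16944678-16944877, chr5:23003659-23003908 and chr2:8108648-8108897, all on the plus strand, and that of SEN1 is cut where the gene before it ends.
DIN10: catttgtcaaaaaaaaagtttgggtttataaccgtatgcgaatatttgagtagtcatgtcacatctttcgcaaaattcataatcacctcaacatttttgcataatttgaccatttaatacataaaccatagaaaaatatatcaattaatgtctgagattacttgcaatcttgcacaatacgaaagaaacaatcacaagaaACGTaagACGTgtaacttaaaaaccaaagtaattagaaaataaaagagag
SEN1: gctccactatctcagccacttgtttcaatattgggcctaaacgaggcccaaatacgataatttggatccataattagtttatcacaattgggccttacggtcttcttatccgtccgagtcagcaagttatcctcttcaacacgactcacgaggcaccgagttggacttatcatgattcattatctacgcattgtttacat
BGAL4: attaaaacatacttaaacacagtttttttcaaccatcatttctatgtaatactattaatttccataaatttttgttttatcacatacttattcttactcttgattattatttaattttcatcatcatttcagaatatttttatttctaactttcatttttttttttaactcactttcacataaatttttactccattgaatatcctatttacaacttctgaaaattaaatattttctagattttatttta
TPS11: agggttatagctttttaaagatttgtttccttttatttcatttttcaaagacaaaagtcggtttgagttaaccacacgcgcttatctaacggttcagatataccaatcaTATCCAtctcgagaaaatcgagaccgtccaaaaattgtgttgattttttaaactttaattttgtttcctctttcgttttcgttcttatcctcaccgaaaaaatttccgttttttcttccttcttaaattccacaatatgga
Both strands of the 250 bases were searched in the 10 genes and in 27443 promoters. ACGT occurs in 4 of the 10 (DIN10 from -50 and -43, TPS8 from -82, TPS9 from -76 and TPS10 from -150, counted from the start) and in 44.1% of all promoters. TATCCA occurs in 3 (TPS11 from -141, TPS10 from -7 and AKINBETA1 from -32) and in 13.6% of promoters. The G-box CACGTG, the evening element core AATATCT and the GCC-box core GCCGCC have no match in the 10, against 6.49%, 10.0% and 1.87% of promoters. ACGT is also the centre of the G-box, so the 2 searches are not separate. The matches are a description of the letters in these windows.

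The first comparison asked how the level over the whole day differed between photoperiods. Dark harvests gave 12 libraries in SD, 9 in EQ and 6 in LD, and light harvests gave 6, 9 and 12. In the day-wide comparisons, an effect of photoperiod and the number of dark harvests averaged therefore cannot be told apart. With edgeR's quasi-likelihood test of the means over 6 time points, EXL1, DIN10, SEN1, BGAL4 and AKINBETA1 were higher in SD than in LD at a false discovery rate (FDR) under 0.05, which makes 5 of 10, all in this direction, where 12.0% of all genes tested passed in either direction and 5.78% were higher in SD. DESeq2 also called 5, and without a filter on low counts 2 passed, DIN10 and SEN1. The shares of all genes given here and below are those of the main edgeR fits. Those for DESeq2 and for other settings are not given. DIN10 was higher by a log2 change of 0.76 (SE 0.21, FDR 0.00997) and BGAL4 by 0.53 (SE 0.16, FDR 0.0253). The FDR was 0.00131 for SEN1, 0.0373 for EXL1 and 0.0344 for AKINBETA1. The 5 TPS genes did not pass, with FDR from 0.158 (TPS5) to 0.786 (TPS9). With 1 replicate letter left out of every group in turn, SEN1 passed in 3 of 3 fits (FDR 0.00834 to 0.0400), DIN10 in 2, BGAL4 and AKINBETA1 in 1 and EXL1 in 0. With 1 of the 5 libraries that stood apart left out, SEN1, DIN10 and BGAL4 passed in 5 of 5 fits, which is no support, since the level of the same genes chose the libraries. EXL1 and AKINBETA1 were lost without library B of LD ZT12 (FDR 0.0563 and 0.0541) and without library C of SD ZT08 (FDR 0.0633 and 0.0629), which left 3 calls in each.

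Because several groups were at 0, the size of the day-wide difference is given by the daily expression integral (DEI), the area under the 24 h curve in CPM × h. The DEI, too, spans more hours of dark in SD than in LD. SEN1 had a DEI of 729 for SD, 319 for EQ and 142 for LD, a log2 ratio of SD to LD of 2.36 (SE 0.40). DIN10 had 1691, 1172 and 859, a log2 ratio of 0.98 (SE 0.19), and BGAL4 had 423, 314 and 268, a log2 ratio of 0.66 (SE 0.16). The DEI of both genes thus stepped down from SD through EQ to LD. The log2 ratio was 1.18 (SE 0.39) for EXL1 and 1.01 (SE 0.28) for AKINBETA1. Among the TPS genes it was 0.85 (SE 0.26) for TPS8, 0.68 (SE 0.24) for TPS9, 0.46 (SE 0.26) for TPS11 and 0.38 (SE 0.57) for TPS10, and for TPS10 it was -0.77 without replicate C. TPS5 had the only ratio below 0, -0.52 (SE 0.27), with DEI values of 78.0, 93.1 and 112 for SD, EQ and LD. The ratio was above 0 for 9 of 10 genes with a median of 0.76, and over the 8184 genes with a mean of at least 10 counts and a ratio it was above 0 for 47.7% with a median of -0.02.

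**Figure D2:**
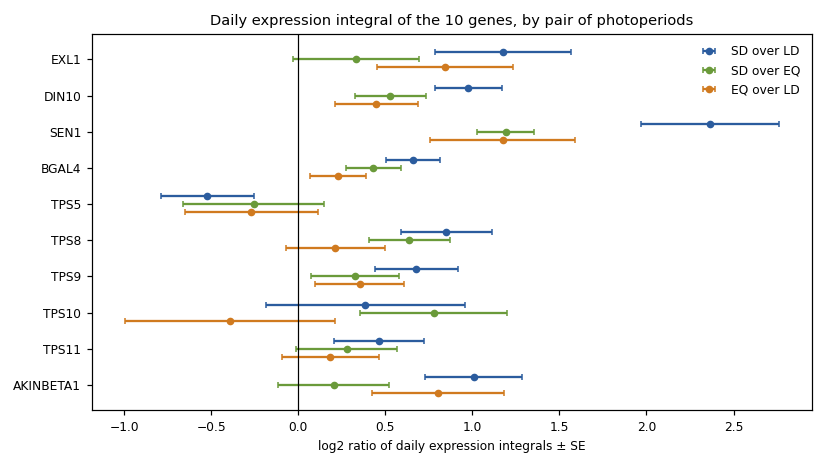
Log2 ratios of the daily expression integral for SD against LD, SD against EQ and EQ against LD (horizontal axis), 1 row a gene, with bars of 1 SE from the replicate variances. SEN1 has the largest SD to LD ratio (2.36) and TPS5 lies below 0 (-0.52).

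EQ was compared with SD and with LD in the same way. Between SD and EQ, 0 of 10 genes passed edgeR's day-wide test (4.99% of all genes did), with 5 at an unadjusted p under 0.05 and 2 called by DESeq2, SEN1 and TPS8. SEN1 had an FDR of 0.0612. Without library C of EQ ZT08, 3 genes passed, SEN1 (FDR 0.0183), TPS8 (0.0325) and TPS9 (0.0345). Between EQ and LD, 0 of 10 passed (1.35% of all genes), 1 had an unadjusted p under 0.05 and DESeq2 called 0. The log2 ratio of DEI was above 0 for 9 of 10 genes for SD against EQ (median 0.38, all genes 50.2%) and for 8 of 10 for EQ against LD (median 0.29, all genes 48.0%). These comparisons share libraries, so the 3 medians are not separate evidence.

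Next, the photoperiods were compared at each time point, in 18 comparisons of 6 libraries each. In total, 8 of the 10 genes passed in at least 1 comparison (TPS5 and TPS9 in none, with a lowest FDR of 0.318 and 0.0504), and all 16 calls were higher in the shorter day. The share of all genes that passed in at least 1 of the 18 is not given, so the 8 cannot be set against it. The comparisons also share libraries, such as those of SD ZT12 and LD ZT16, so the calls are not separate. The genes passed the filter on low counts in 4 (EXL1 and TPS10) to 18 (DIN10 and BGAL4) of the 18 comparisons. In 8 of the 16 calls the lower group was listed at 0 in all 3 libraries, so the gene passed the filter through its higher group alone and the number of calls is no support for a difference. The other 8 calls were of 3 genes, DIN10, SEN1 and BGAL4, and at a minimum count of 30, 5 genes passed. With a replicate letter left out, 2 genes passed in each of the 3 fits, DIN10 and SEN1. All of them fell in the 4 comparisons in which one photoperiod was dark and the other lit, where 13.0% to 17.9% of all genes passed. In the 14 comparisons with like light, 0 of 92 tests of these genes passed edgeR's test, 3 had an unadjusted p under 0.05 and DESeq2 called 1, while 0.038% to 3.08% of all genes passed (0.388% of all such tests).

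**Figure D3:**
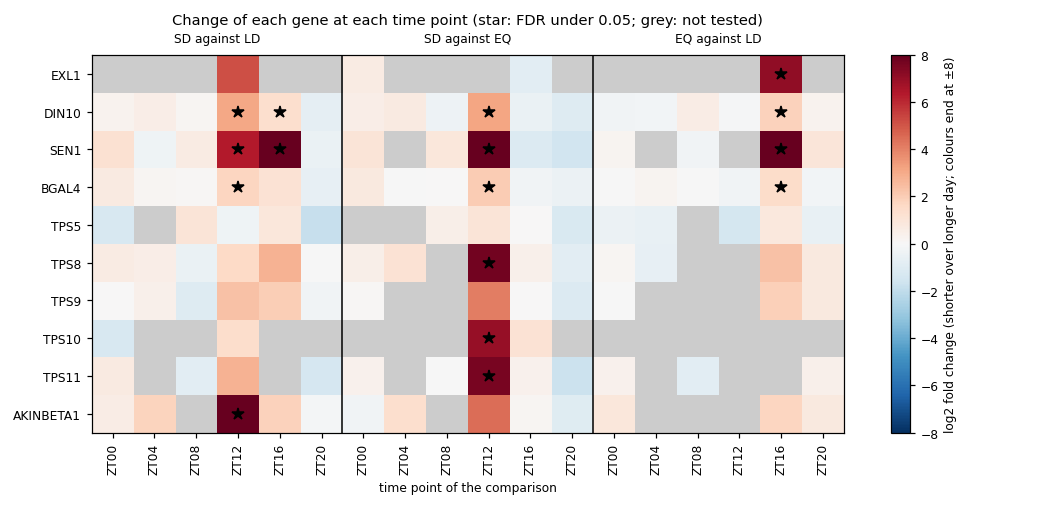
Fitted log2 change (colour, shorter over longer day) of the 10 genes (rows) in the 18 comparisons of photoperiods at single time points (columns), with a star for an FDR under 0.05 and grey where a gene was not tested. Where a group is at 0 the colour depends on the fit and sets no size. The 16 calls lie in the 4 comparisons of a dark with a lit photoperiod, SD against LD and EQ at ZT12 and SD and EQ against LD at ZT16.

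The comparison of SD with EQ at ZT12 set 4 h of dark in SD against the end of the light in EQ. It called 6 genes, where 17.9% of all genes passed. DIN10, at the values given above, was higher by a log2 change of 3.15 (SE 0.24, FDR 0.00125), and BGAL4 by 2.03 (SE 0.43, FDR 0.026). SEN1 was at least 93.9-fold higher (FDR 0.00102), TPS8 at least 3.67-fold (FDR 0.0214), TPS11 at least 7.86-fold (FDR 0.0215) and TPS10 at least 3.86-fold (FDR 0.0323), since these 4 genes were listed at 0 in all 3 EQ libraries. They passed the filter through their SD libraries alone, so these 4 calls are no support for a difference. TPS8 held 3.96, 9.09 and 8.77 CPM in SD, above the bound of 1.98 CPM for its EQ libraries.

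SD against LD at ZT12 called 4 genes, where 13.0% of all genes passed. LD libraries held 10.9, 34.4 and 18.9 CPM of DIN10, 3.99, 0 and 0 CPM of SEN1 and 6.39, 15.7 and 7.15 CPM of BGAL4, with no overlap with SD. The log2 changes were 3.08 (SE 0.45, FDR 0.0123) for DIN10, 6.33 (SE 1.44, FDR 0.0402) for SEN1 and 1.73 (SE 0.41, FDR 0.0468) for BGAL4. AKINBETA1, at 0 in LD, was at least 17.5-fold higher in SD (FDR 0.00779). It passed the filter through its SD libraries alone, so this call is no support for a difference. TPS9 (FDR 0.0504) and EXL1 (0.0577) did not pass. Without library B of LD ZT12, SEN1 was lost (FDR 0.0874) and TPS9 (0.0488) and TPS11 (0.038) passed.

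At ZT16 the LD seedlings were at dusk and the others had been dark for 4 h (EQ) or 8 h (SD). EQ against LD called 4 genes, where 14.2% of all genes passed. SEN1 was at least 30.7-fold higher in EQ (FDR 0.00127) and EXL1 at least 5.77-fold (FDR 0.0363), while the log2 change was 1.87 (SE 0.21, FDR 0.00358) for DIN10 and 1.48 (SE 0.25, FDR 0.0146) for BGAL4. The call of EXL1 was lost in each fit with a replicate left out that kept the gene. EXL1 was listed at 0 in LD and passed the filter through its EQ libraries alone, so this call is no support either. SD against LD called 2 genes, where 13.7% of all genes passed, DIN10 by 1.35 (SE 0.30, FDR 0.0365) and SEN1, at least 14.4-fold higher in SD (FDR 0.0064). With a replicate letter left out, DIN10 and SEN1 at ZT12 against EQ and SEN1 at ZT16 of EQ against LD passed in 3 of 3 fits, and each other call at a time point in 0 or 1. Both SEN1 comparisons, and that of SEN1 in SD against LD at ZT16, were against groups listed at 0. SEN1 thus passed the filter through its higher group alone, and its passes are no support for a difference.

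The shape of the day was then compared. In a joint test of photoperiod and time of day over the 54 libraries, the courses of DIN10 (FDR 0.000606), SEN1 (0.000567) and BGAL4 (0.00889) differed between photoperiods, 3 of 10 where 9.42% of all genes passed. DESeq2 called 5. Those values lay at 0.0421 to 0.0627 for DIN10, 0.0252 to 0.114 for SEN1 and 0.0457 to 0.508 for BGAL4 with a replicate letter left out. Within SD, the same 3 genes varied with time of day (DIN10 0.000169, BGAL4 0.000642, SEN1 0.006), where 17.4% of all genes did. In EQ it was DIN10 (0.00521), SEN1 (0.00211) and TPS9 (0.0418), where 15.0% did, and BGAL4 had an FDR of 0.0505. BGAL4 passed in EQ without library C of EQ ZT00 (0.0165), without library B of LD ZT00 (0.0475) and without library B of LD ZT12 (0.0364), and TPS9 was lost without either of the last (0.051 and 0.0501). Without library C of EQ ZT08, 5 genes passed in EQ, TPS8 (0.0191) and AKINBETA1 (0.0116) being added, and 2 in LD. In LD only SEN1 passed (0.0143), where 13.3% did, with an FDR of 0.0532 to 0.455 when a replicate was left out and of 0.0727 without library B of LD ZT00.

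Around dusk, the last lit harvest was compared with the one after 4 h of dark within each photoperiod. The mean was higher after dusk for 9 of 10 genes in SD (TPS5 was lower) and for 10 of 10 in EQ and in LD, against 46.0%, 48.7% and 50.3% of the 8189 genes with a mean of at least 10 counts. In EQ, 4 genes passed, where 6.02% of all genes did. DIN10 rose by a log2 change of 2.24 (SE 0.53, FDR 0.0041) and BGAL4 by 1.53 (SE 0.40, FDR 0.0125), while SEN1 rose at least 32.3-fold (FDR 0.00112) and TPS8 at least 3.61-fold (FDR 0.0273). With a replicate letter left out, SEN1 passed in 3 of 3 fits, DIN10 in 2, BGAL4 in 1 and TPS8 in 0. In SD, DIN10 rose by 2.21 (SE 0.53, FDR 0.00307), the only call of 10 where 9.73% of all genes passed, with SEN1 at an FDR of 0.0554 and BGAL4 at 0.0585. DESeq2 called 3 genes in this step. There 2 genes passed without library C of EQ ZT00, library C of EQ ZT08 or library B of LD ZT12, and 3 without library C of SD ZT08 (DIN10, SEN1 at 0.0459 and TPS9 at 0.028). In LD, SEN1 rose at least 6.62-fold (FDR 0.0165, not passed with any replicate letter left out), the only call where 6.14% of all genes passed, and DIN10 changed by 0.61 (SE 0.51, FDR 0.624). The differences between the dusk steps, added after the data were seen, gave 0 calls by edgeR in each pair of photoperiods (2.84% of all genes for SD minus LD, 0.29% for SD minus EQ and 0.645% for EQ minus LD) with 1 to 3 genes at an unadjusted p under 0.05, and DESeq2 was not run on them, so the dusk steps are not shown to differ.

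The level after an equal 4 h of dark was also compared, which means SD ZT12, EQ ZT16 and LD ZT20. DIN10 was higher in SD than in LD by a log2 change of 2.09 (SE 0.53, FDR 0.0072) and BGAL4 by 1.34 (SE 0.40, FDR 0.028), 2 of 10 where 7.55% of all genes passed. With a replicate letter left out DIN10 passed in 0 of 3 fits (FDR 0.0591 to 0.0864) and BGAL4 in 1. SEN1 did not pass (3.75, SE 1.31, FDR 0.0789), at 98.1 to 120 CPM in its SD libraries and 4.57 to 13.4 CPM in those of LD. Between SD and EQ edgeR and DESeq2 called 0 of 10 (1.32% of all genes by edgeR) with 0 at an unadjusted p under 0.05. Between EQ and LD both called 0 (1.91% of all genes by edgeR), with 2 at an unadjusted p under 0.05. Fitted on the groups compared alone, edgeR called 4 genes in SD against LD (DIN10, SEN1, BGAL4 and TPS9), SEN1 in SD against EQ, and DIN10 and SEN1 in EQ against LD, so these counts depend on which libraries enter the fit. Without a filter DIN10 alone passed in SD against LD. The harvests with equal hours of dark differ in time after dawn, and these cannot be told apart.

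**Figure D4:**
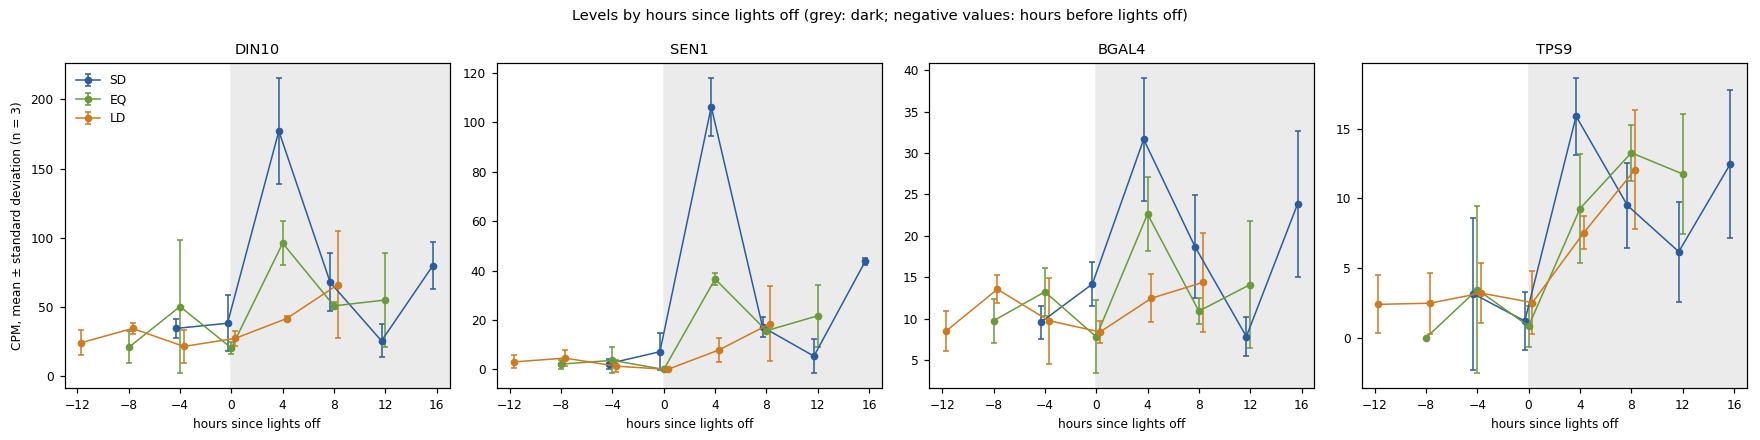
Mean levels of DIN10, SEN1, BGAL4 and TPS9 in CPM, with bars of 1 standard deviation (n = 3), against hours since the lights went off. Negative hours and 0 are harvests in the light and the grey area is the dark, with the photoperiods shifted slightly sideways. At 4 h after dusk DIN10 was at 177, 96.1 and 41.5 CPM and SEN1 at 106, 36.6 and 7.89 CPM in SD, EQ and LD.

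Around dawn, from ZT00 to ZT04, 10 of 10 genes were lower in mean in the light in SD, EQ and LD, against 52.6%, 50.5% and 51.2% of the same 8189 genes. Some of these differences lay within the spread of the replicates, such as TPS10 in SD from 1.69 ± 2.93 to 1.21 ± 1.16 CPM. In SD, BGAL4 dropped from 13.7, 29.0 and 28.9 CPM to 11.1, 10.3 and 7.30 CPM, a log2 change of -1.32 (SE 0.40, FDR 0.0296). SEN1 dropped from 43.8 ± 1.53 CPM to 3.59, 0 and 3.46 CPM, a log2 change of -4.21 (SE 1.37, FDR 0.0482), which became 0.0512 without library C of EQ ZT00 and 0.0501 without library B of LD ZT00. These were 2 calls of 10 where 8.63% of all genes passed, and both were lost whenever a replicate letter was left out. In EQ, TPS9 went from 14.5, 14.0 and 6.77 CPM to 0 in all 3 libraries, at least 8.68-fold lower (FDR 0.0165, and 0.061 to 0.175 with a replicate letter left out), the only call where 8.21% of all genes passed, and DIN10 also passed without library C of EQ ZT00 (0.0231). In LD 0 of 10 passed (5.64% of all genes), 1 had an unadjusted p under 0.05 and DESeq2 called 0.

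Within the SD night the 2 high points were separated by a low one. The steps from ZT12 to ZT16, ZT16 to ZT20 and ZT20 to ZT00 were added after the data were seen, and edgeR called 0 of the 10 genes in each, where 1.54%, 2.68% and 0.34% of all genes passed, with 2, 2 and 3 genes at an unadjusted p under 0.05. DESeq2 was not run on them. From ZT20 to ZT00 BGAL4 went from 6.10, 6.86 and 10.5 CPM to 13.7, 29.0 and 28.9 CPM, a log2 change of 1.60 (SE 0.40) with an FDR of 0.0655, and of 0.0443 without library C of EQ ZT00. DIN10 changed by 1.65 (SE 0.52, FDR 0.2) and SEN1 by 3.01 (SE 1.27, FDR 0.467).

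Across the 18 group means, the levels of the genes were correlated, least for TPS5. The median Pearson r over the 45 pairs was 0.72 on log2(CPM + 0.5), the highest was 0.93 for DIN10 and BGAL4, and the median of TPS5 with the others was 0.28. Among pairs without TPS5, r went down to 0.54 for TPS10 and AKINBETA1. These correlations are a description, since all genes share the libraries and the 18 means come from 3 photoperiods. Listed zeros also enter the means. For pairs of genes outside the set r was not computed, so the median of 0.72 is not shown to be particular to the set. Among the 8189 genes with a mean of at least 10 counts, those most like SEN1 were AT3G61260 (r 0.97), XTH24 (0.94), a xyloglucan-modifying enzyme of the cell wall, and ACBP3 (0.94), an acyl-CoA-binding protein. AT3G61260 was also second for DIN10 (0.93) and among the 3 most like BGAL4 (0.88). XTH24 was first for TPS8 (0.93), AT5G02155 for TPS9 (0.96), PEX11E, a peroxisome division protein, for TPS11 (0.89), AT1G09753 for TPS5 (0.80) and FLA9, an arabinogalactan protein, for AKINBETA1 (0.97). Of these, ACBP3 (125 bp), AT5G02155 (374 bp), PEX11E (489 bp) and AT1G09753 (246 bp) overlap a gene on the opposite strand, so their counts may hold reads of that gene.

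Other genes of the pathway were taken from fixed lists, and their calls stand against the shares of all genes given above (12.0% for SD against LD over the day, 9.73%, 6.02% and 6.14% around dusk and 8.63%, 8.21% and 5.64% around dawn for SD, EQ and LD). The catalytic synthase gene TPS1 was lower in SD than in LD over the day by a log2 change of -0.55 (SE 0.15, FDR 0.00798) and fell around dusk in SD from 32.2 ± 10.4 to 8.16 ± 1.61 CPM, a log2 change of -1.97 (SE 0.37, FDR 0.000131). TPS7, another class II gene, changed by -1.47 (SE 0.45, FDR 0.0288) in that step, and TPS1 rose from ZT00 to ZT04 in SD (1.93, SE 0.37) and EQ (1.55, SE 0.36). TPS1 overlaps a gene on the opposite strand by 429 bp, so its counts may hold reads of that gene. Of the 6 other TPS genes 3 were tested. Of 6 other dark-inducible genes 3 were tested, and DIN6, an asparagine synthetase, was higher in SD than in LD by 2.96 (SE 0.64, FDR 0.00103), and rose around dusk in SD (FDR 0.037) and EQ (FDR 0.00403). It held 91.9 ± 34.2 CPM at SD ZT12, 29.2 ± 7.34 at EQ ZT16 and 4.46 ± 4.01 at LD ZT20.

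In the EXORDIUM family 5 of 7 genes were tested, and EXL3 (0.47, SE 0.14, FDR 0.0188) and EXO (1.44, SE 0.49, FDR 0.0474) were higher in SD than in LD over the day. EXL2 rose around dusk in SD (2.31, SE 0.49) and EQ (1.69, SE 0.49), EXL3 rose around dusk in EQ (1.22, SE 0.35), and both EXL2 and EXL3 fell from ZT00 to ZT04 in SD, EQ and LD. Among the 5 bZIP factors that work with SnRK1, edgeR called BZIP53 over the day, higher in SD than in LD by 0.63 (SE 0.20, FDR 0.0319), 1 of 5 tested, and DESeq2 called 2. The other SnRK1 subunits (2 of 6 tested) and the phosphatase and trehalase genes that break down trehalose 6-phosphate and trehalose (1 of 11 tested) gave 0 calls over the day between SD and LD by edgeR and by DESeq2, with 1 and 0 genes at an unadjusted p under 0.05. Of these, 3 of the 6 and 9 of the 11 had a mean under 1 count, too few to show a change in them.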

How the data were processed

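RNA-seq of whole seedlings was measured in 54 libraries, 3 in each of 18 groups of photoperiod and time, grouped as the labels give them. The authors trimmed paired reads with Trimmomatic 0.39, aligned them with HISAT2 2.1.0 under a stranded setting to TAIR10 with 92 spike-ins, and estimated coverage with StringTie 2.1.2. The deposited values are counts in whole numbers, 1 per gene and library, made with prepDE and not normalized. Coordinates, overlaps and promoters were taken from the RefSeq TAIR10.1 annotation.

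Spike-ins were left out. Counts were fitted in R 4.3.3 with edgeR 4.0.16 (TMM scaling, filterByExpr at a minimum count of 10, quasi-likelihood test, Benjamini-Hochberg FDR over all genes tested, threshold 0.05). Each of the 18 comparisons at a time point used its 6 libraries. Day-wide, interaction, time-of-day, dusk, dawn and equal-dark contrasts used 1 fit of 54 libraries. DESeq2 1.42.0 was an alternative, and limma 3.58.1 was loaded with edgeR. The DEI followed the trapezoid rule with ZT00 repeated, computed in Python 3.11 with numpy 2.4.6 and pandas 2.3.3, and figures used matplotlib 3.10.9. Other alternatives were library totals or DESeq2 size factors for scaling, no filter or a minimum count of 30, a replicate block, only the groups compared, each replicate letter left out and, added after the data were seen, each of 5 libraries that stood apart left out. All replicate pairs differed beyond sampling noise.

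The genes and lists were chosen with earlier results of these data known. All 10 genes were named, and from each other list the called genes in order of FDR, at most 5. On simulated counts with 100 genes changed 2-fold, the day-wide SD against LD test recovered 100 among 10343 genes tested and the dusk step in SD 43 among 10326, and 4-fold changes were recovered for 100 and 99. The simulated counts had the same spread setting for every gene, no rhythm through the day and no dropped zeros. All changed genes had a mean of at least 5 CPM. Recovery for genes of the set with lower levels, larger spread or many zeros was not tested. Library depth sets the precision, and all errors cover counting and replicate spread only.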

Additional observations from a re-analysis of the deposited data

Results flagged for a closer look

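The time courses of 3 genes differed between photoperiods by the test of the difference itself, the joint edgeR test of photoperiod and time of day over 54 libraries. In that test 9.42% of all genes passed. The FDR was 0.000567 for SEN1, 0.000606 for DIN10 and 0.00889 for BGAL4. With a replicate letter left out of every group in turn it lay at 0.0252 to 0.114 for SEN1, 0.0421 to 0.0627 for DIN10 and 0.0457 to 0.508 for BGAL4, which left 1 to 2 calls. With 1 of the 5 libraries that stood apart left out, all 3 genes passed in 5 of 5 fits, with a highest FDR of 0.000726, 0.00052 and 0.0124. These passes are no support, since the level of the same genes chose the libraries.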

How the results depend on the processing

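The counts below are of the 10 genes called. The share of all genes called under each of these settings is not given. A count that moves is therefore not set against all genes. With DESeq2 size factors the dusk step in SD gave 2 and the dawn step in SD 1. With library totals only the time of day gave 6 in EQ and 3 in LD, the dusk step in SD 3, and the dawn step 2 in EQ and 1 in LD. With DESeq2 the day-wide SD against EQ test gave 2, the interaction 5, the time of day 7 in EQ and 3 in LD, and the dusk step 3 in SD and 2 in LD. With no filter the day-wide SD against LD test gave 2, the dawn step in SD 0 and 4 h of dark in SD against LD 1. At a minimum count of 30 the time points gave 5, day-wide SD against EQ 1, the time of day 6 in EQ and 2 in LD, and the dusk step in SD 3. With only the groups compared, day-wide SD against EQ gave 1, the time of day 1 in EQ and 0 in LD, the dusk step in SD 3, and 4 h of dark 4 in SD against LD, 1 in SD against EQ and 2 in EQ against LD (for the interaction these are the same libraries).

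With a replicate letter left out, the counts were 2 to 2 at the time points, 1 to 3 day-wide in SD against LD, 0 to 0 day-wide in SD against EQ, 1 to 2 for the interaction, 1 to 2, 1 to 3 and 0 to 0 for the time of day in SD, EQ and LD, 0 to 1, 1 to 3 and 0 to 0 for their dusk steps, 0 to 0 for the dawn steps in SD and EQ, and 0 to 1 for 4 h of dark in SD against LD. The DEI ratio of SD to LD was above 0 for 8 to 9 genes, and that of TPS10 was -0.77 without replicate C and 1.28 without replicate B. After the data were seen, 5 libraries that stood apart were left out in turn. Without library C of EQ ZT00 the dusk step in SD gave 2 and the dawn steps in SD and EQ 1 and 2. Without library C of EQ ZT08, day-wide SD against EQ gave 3, the time of day in EQ and LD 5 and 2, and the dusk step in SD 2. Without library B of LD ZT00 the time of day in LD gave 0 and the dawn step in SD 1. Without library B of LD ZT12 or C of SD ZT08, day-wide SD against LD gave 3, and the dusk step in SD 2 and 3.

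The replicate letters do not pair the libraries: deviations from the group means had a mean correlation of 0.00156 between libraries with the same letter and -0.00077 otherwise, and 23 of 54 were closest to their own letter. With a replicate block the time points gave 2, the dusk step in LD 2 and the dawn step in SD 1. Library totals moved the median of all genes by -0.18 to 0.19 (log2) and by over 0.1 in 5 of 30 contrasts. Genes with a mean under 1 count, and the lowest TPS genes, have few counts, and the cause was not tested.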
